A study of Mus musculus with 2 samples.

Results

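The receptor chains for interleukin-5 (IL-5), interleukin-3 (IL-3) and granulocyte-macrophage colony-stimulating factor (GM-CSF), and the PIM kinases, were measured in eosinophils sorted from the colon of naive mice. The 8 genes were chosen by name: Il5ra, Il3ra, Csf2ra, Csf2rb, Csf2rb2, Pim1, Pim2 and Pim3. Each had 1 row in the deposited table, so all 8 were found among 23456 genes. The data hold 1 group of 2 samples, colonic eosinophils of naive wild-type C57BL6 mice, isolated by flow cytometry after enzymatic digestion of the colon. Each sample was made into 3 technical libraries by CEL-Seq, a method that counts short tags from the 3′ ends of messenger RNAs. The table gives 1 mean over the 6 libraries, so no value per sample is shown and no SD or test between samples could be given. The sources used here do not give the age, sex and number of the mice or the sort gate.

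IL-5, IL-3 and GM-CSF each bind a private alpha chain, and the bound alpha chain then pairs with a beta chain that carries most of the signalling tail. Mice have a pair of beta chain genes: Csf2rb encodes the chain common to the 3 cytokines, and its copy Csf2rb2 encodes a chain that serves IL-3 alone. The kinase Jak2 on the beta chain activates STAT5, and the PIM genes are among the known targets of STAT5. PIM kinases are serine/threonine kinases that are active as soon as they are made, so that their amount is set largely by transcription, messenger RNA decay and protein turnover. IL-5 is best known as the cytokine on which eosinophils depend for their production and survival, and GM-CSF and IL-3 prolong survival of the same cells.

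The copies Csf2rb and Csf2rb2 are nearly alike in their coding sequence and less alike at their 3′ ends. In the GENCODE M21 transcripts, 95.2% of 2628 aligned coding bases were identical, against 86.6% of 462 aligned bases in the last 500 of each transcript. Of the 35-base words of the Csf2rb transcript, 1241 of 4730 (26.2%) also occur in Csf2rb2, so most words of the transcript tell the copies apart. In the last 500 bases, where CEL-Seq tags are expected, 2 of 466 do. The codons of the WSXWS box, the hallmark of the cytokine receptor fold, are shown as an example of the coding sequence. They are in capitals, in exon 10 of both genes, at chr15:78345507-78345539 on the plus strand for Csf2rb and chr15:78287907-78287939 on the minus strand for Csf2rb2 (mm10).
Csf2rb: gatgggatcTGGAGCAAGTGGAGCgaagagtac
Csf2rb2: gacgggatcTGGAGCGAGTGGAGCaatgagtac
These stretches differ at 4 of 33 bases, a larger share than over all aligned coding bases. Of these differences 1 lies inside the box (A16G, Csf2rb first, counted from 1 at the 5′ end). The 3′ ends are shown around the last polyadenylation signal, in capitals, at chr15:78350968-78350997 on the plus strand and chr15:78282513-78282542 on the minus strand.
Csf2rb: atgtttacatacAATAAAacagcaaaacaa
Csf2rb2: ttttttacatacAATAAAacatagctaaaa
Here 8 of 30 bases differ.

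The chain for GM-CSF dominated the alpha chains. Csf2ra had an RPKM (reads per 1000 bases of transcript and 1000000 reads) of 525, with an interval of 516 to 533. All intervals here are exact 95% Poisson or binomial intervals of the reads over the 6 libraries. They cover counting error only, and take no account of unequal library depth or of copies made in amplification. Il5ra had an RPKM of 18.6 (17.5 to 19.7) and Il3ra 1.35 (0.962 to 1.83). Csf2ra thus stood at the rank of 56 among all genes by RPKM, Il5ra at 1293 and Il3ra at 6449.

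Per length, Csf2ra was 28.3 times as high as Il5ra (26.6 to 30.1) and 390 times as high as Il3ra (286 to 546). Il5ra was in turn 13.8 times as high as Il3ra (10.1 to 19.4). By reads the ratio of Csf2ra to Il5ra was 14.3 (13.5 to 15.2), and that of Il5ra to Il3ra lay in an interval of 20.3 to 39.2. Csf2ra held 93.3% of the 17122 reads of the 3 alpha chains (92.9 to 93.6), Il5ra 6.51% (6.14 to 6.89) and Il3ra 0.234% (0.167 to 0.318). As shares of RPKM the 3 values were 96.3%, 3.41% and 0.247%. The Il3ra value rests on 40 reads in all, against 1114 for Il5ra and 15968 for Csf2ra. Levels of messenger RNA do not give the number of receptors on the cell surface, and in a bulk sample fewer cells with a transcript and less of it per cell cannot be told apart.

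The common beta chain Csf2rb had an RPKM of 68.4 (66.7 to 70.1) from 6078 reads, and the IL-3 beta chain Csf2rb2 16.7 (15.8 to 17.6) from 1303 reads. Csf2rb was 4.10 times as high as Csf2rb2 per length (3.86 to 4.35), and held 82.3% of the 7381 reads of both (81.5 to 83.2). By RPKM both beta chains thus lay between the highest alpha chain, Csf2ra, and the lowest, Il3ra. Csf2rb was above Il5ra and Csf2rb2 below it. Csf2ra was 7.67 times as high as Csf2rb (7.45 to 7.90) per length, while Csf2rb was 3.68 times as high as Il5ra (3.46 to 3.93) and 50.8 times as high as Il3ra (37.3 to 71.2). On the IL-3 side, Csf2rb2 was 12.4 times as high as Il3ra (9.05 to 17.4) per length. By reads, with no length term, Csf2rb2 was 32.6 times (23.8 to 45.8) and Csf2rb 152 times (111 to 213) as high as Il3ra. The copies lie 20386 bases apart on chromosome 15 and point away from each other, Csf2rb (NM_007780) on the plus strand from 78325990 to 78351001 and Csf2rb2 (NM_007781) on the minus strand from 78282510 to 78305603. The sources used here do not say how reads with several alignments were counted, so reads from inside the shared coding sequence could have been lost or assigned to either copy.

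Pim1 was the highest of the 8 genes. It had an RPKM of 623 (614 to 632) from 20408 reads, which placed it at the rank of 39 among all genes. Pim3 had 32.2 (30.7 to 33.8) and Pim2 28.3 (26.7 to 29.9). Pim1 was 19.3 times as high as Pim3 (18.4 to 20.3) and 22.0 times as high as Pim2 (20.8 to 23.4) per length, and held 87.6% of the 23307 reads of the 3 kinases (87.1 to 88.0). By reads the ratio of Pim1 to Pim3 lay in an interval of 11.4 to 12.6, and that of Pim1 to Pim2 was 17.1 (16.1 to 18.1). Pim3 and Pim2 were near each other, with a ratio of 1.14 per length (1.06 to 1.23). Pim1 and Csf2ra, the highest kinase and the highest receptor chain, were also near each other, with a ratio of 1.19 (1.16 to 1.21).

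**Figure D1:**
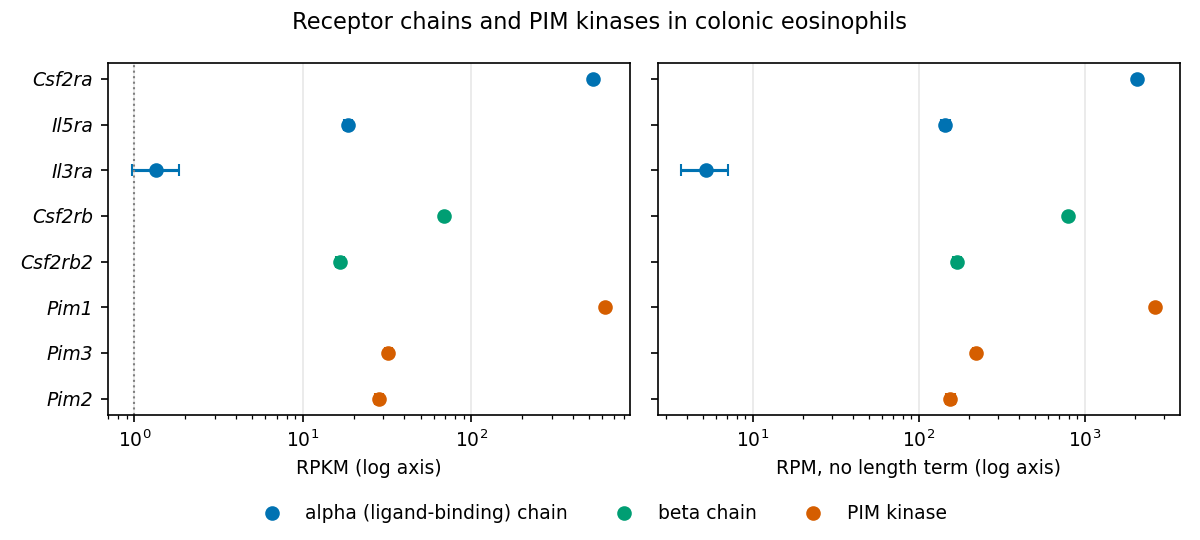
RPKM (left) and reads per 1000000 reads on genes (RPM, right) of the 8 genes on log axes, with exact 95% Poisson intervals of the reads over 6 libraries; the dotted line is an RPKM of 1. Csf2ra and Pim1 stand at 525 and 623 RPKM, Il3ra at 1.35, and only the interval of Il3ra is wide and reaches below 1.

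By RPKM the order was Pim1, Csf2ra, Csf2rb, Pim3, Pim2, Il5ra, Csf2rb2 and Il3ra, a span of 463 times from first to last. The counting interval of the ratio left out 1 for all 7 pairs of neighbours. The narrowest gap was that of Il5ra to Csf2rb2, 1.11 times (1.03 to 1.21). CEL-Seq reads come from transcript ends, whereas RPKM includes the whole length, so RPM (reads per 1000000 reads on genes) was set beside it. By RPM 5 of the 8 genes kept their place, and Csf2rb2 at 169 (160 to 179) passed Pim2 at 155 (147 to 165) and Il5ra at 145 (136 to 154). The Pim2 and Il5ra values could not be told apart by reads, with a ratio of 1.07 (0.989 to 1.17). Csf2ra was 2.63 times as high as Csf2rb by reads (2.55 to 2.71), so the size of this gap, as of those given by reads above, depends on the scale. No spread between samples stands behind any of these orders.

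**Figure D2:**
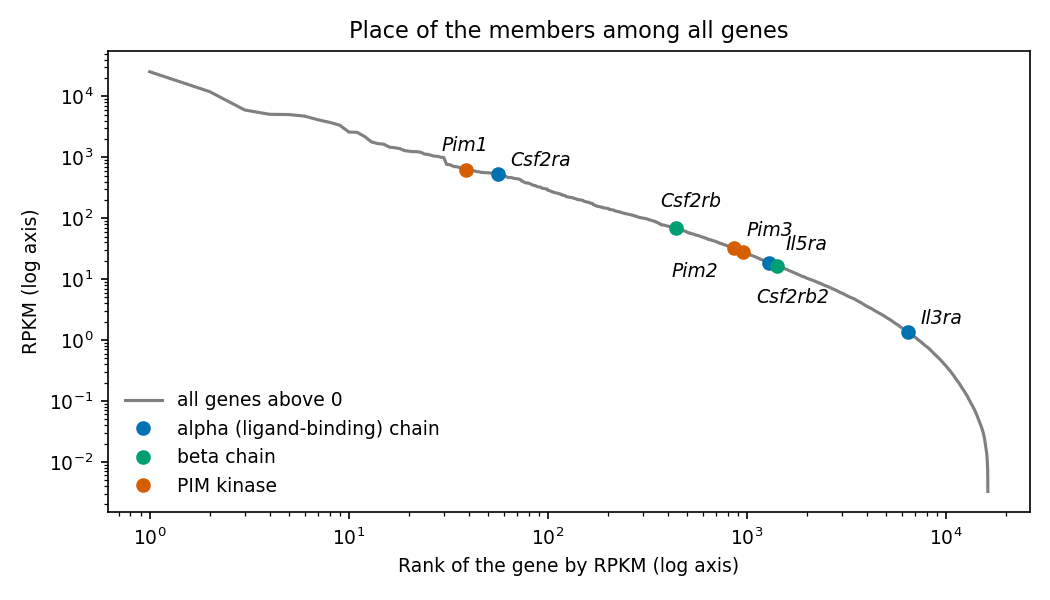
RPKM of every gene above 0 against its rank, both on log axes, with the 8 genes marked by class. Pim1 and Csf2ra lie at the ranks of 39 and 56, 5 genes lie between 442 and 1414, and Il3ra lies at 6449.

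All 8 genes reached an RPKM of 1, against 31.0% of all genes. An RPKM of 10 was reached by 7 of them, against 8.78% of all genes, and 100 by 2, against 1.28%. The median over the 8 was 30.3, above the value of 96.1% of genes, while the median of all genes was 0.186. The 8 genes together took 47810 reads, 0.622% of the 7692387 reads on genes. The genes were named with earlier results of these data known, so these counts describe them and are no test.

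The row used for Pim1 stops short of the 3′ end where CEL-Seq tags are expected. It (NM_008842) runs on chromosome 17 from 29491045 to 29495459 on the plus strand (mm10), whereas the matching GENCODE M21 transcript runs on for another 653 bases. Reads from those last bases lie outside the row's coordinates, and their number is not known here. For the other 7 genes the transcript's 3′ end lay between 1 base before and 22 bases after the end of the row. On the opposite strand, the annotated gene Gm26885 overlaps the Pim1 row by 881 bases, and Gm48860 overlaps the Il3ra row by 770. Whether the counting used strand is not stated in the sources used here, so reads from these antisense genes cannot be told apart from those of Pim1 and Il3ra. A microRNA gene overlaps the row of each beta chain gene on the same strand, Mir7676-2 for Csf2rb and Mir7676-1 for Csf2rb2.

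The stretch of Pim1 beyond the row holds an AU-rich element, the kind of sequence through which messenger RNAs of short life are marked for decay. Motifs were searched on the transcript strand only: ATTTA, and the longer TTATTTATT, whose copies overlap ATTTA. The elements of Pim1 and Pim3 are shown because their 26 bases hold the most copies of ATTTA, in capitals, of any such window in each 3′ UTR, and more than any window of Pim2. The Pim1 site is at chr17:29495692-29495717 and that of Pim3 at chr15:88865275-88865300, both on the plus strand (mm10).
Pim1: aatgtATTTATTTATTTATTTAtttg
Pim3: gggctATTTAttgtttaATTTAtttg
The Pim1 site begins 233 bases after the end of the row, and that of Pim3 lies inside its row. In the last 500 bases of the 3′ UTR, Pim1 had 4 of its 5 copies of ATTTA and 3 of TTATTTATT, Pim3 had 5 and 0, and Pim2 had 2 and 0. Of 12947 mouse genes with a 3′ UTR of 500 bases or more, 59.5% had ATTTA in that window, 5.21% had 4 or more copies, 3.64% had TTATTTATT and 0.147% had 3 or more of it. The minimums of 4 and 3 equal the counts of Pim1 itself, so these shares are a description and no test. Copies in the Pim1 stretch shown overlap each other, so they are not separate sites. Csf2ra, Csf2rb and Csf2rb2 had neither motif anywhere in their 3′ UTR, Il5ra had 1 ATTTA outside the window, and the 3′ UTR of Il3ra, 64 bases, had none. These matches describe the letters of the transcripts, and no decay was measured.

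The remaining rows were Il5ra (NM_008370) on chromosome 6 from 106710379 to 106749037, minus strand, Il3ra (NM_008369) on chromosome 14 from 14346495 to 14355490, plus strand, and Csf2ra (NM_009970) on chromosome 19 from 61224402 to 61228418, minus strand. Pim2 (NM_138606) lies on chromosome X from 7878306 to 7883432 and Pim3 (NM_145478) on chromosome 15 from 88862194 to 88865726, both on the plus strand. In the last 500 bases, 16.7% of the 35-base words of Il5ra and 2.81% of those of Csf2ra were shared with transcripts of other genes, on either strand. For Il3ra, Pim2 and Pim3 none were shared. None were for Pim1 either, but its last 500 bases lie beyond the end of its row. Over the whole Pim1 transcript 12.8% of words were shared. The kinases are less alike than the beta chains, with 74.8% of aligned coding bases identical between Pim1 and Pim3, 70.4% between Pim2 and Pim3 and 70.0% between Pim1 and Pim2, and no 35-base word in common.

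The genes of the ligands were close to 0. Il5, the eosinophil growth factor gene, had an RPKM of 0.0954 (0.0197 to 0.279) from 3 reads, and Il3 and Csf2, which encodes GM-CSF, were listed at 0. For a count of 0 the upper limit used was 3 reads over the 6 libraries, equal to 0.390 RPM. None of the 3 ligand genes reached an RPKM of 1. Ligand made by other cells of the colon is outside this measurement.

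Receptor chains of the same fold that serve other cytokines ranged from 0 to 55.3 RPKM. Of 24 such chains 4 had an RPKM of at least 1, against 31.0% of all genes, and the median RPKM was 0.228. By RPM 13 of 24 reached 1, against 50.9% of all genes. Il2rg, the gamma chain common to several interleukin receptors, had 55.3 (52.7 to 58.0), Crlf2, the chain for thymic stromal lymphopoietin, 32.6 (30.3 to 35.1), Il4ra, the chain for IL-4 and IL-13, 9.50 (8.90 to 10.1) and Il11ra1 1.27 (0.887 to 1.77). Chains listed at 0 included Il9r, Il12rb1 and Il13ra2. Csf2ra and Csf2rb were above each of the 24 by RPKM and by RPM. Il5ra and Csf2rb2 were above all but Il2rg and Crlf2 by RPKM, and above all but Il2rg by RPM. The interval of Il3ra overlapped that of Il11ra1.

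Of 19 kinases and adaptors that act next to the beta chain, 16 reached an RPKM of 1, against 31.0% of all genes. Their median was 9.70. Jak1 had 121 (119 to 124), the kinase Fes 39.2 and the adaptor Grb2 38.4. Jak2, the kinase held by the beta chain, had 34.4 (33.1 to 35.7), the Src family kinase Lyn 22.8 and Sdcbp, the syntenin adaptor of the IL-5 alpha chain, 22.0. These 3 are outside the 4 highest and were picked with their values in view. Those below 1 were Tyk2 at 0.854, Fyn at 0.774 and Ptpn11 at 0.240.

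The STAT factor genes described here each reached an RPKM of 1, which 31.0% of all genes did, and Stat3 was the highest. Stat3 had 23.6 (22.6 to 24.7), Stat6 8.97 (8.34 to 9.63), Stat5a 1.63 (1.33 to 1.98) and Stat5b 1.30 (1.06 to 1.58). The intervals of Stat5a and Stat5b, the factors that Jak2 on the beta chain activates, overlap.

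Of 11 genes that restrain this pathway, 9 reached an RPKM of 1, against 31.0% of all genes, around a median of 8.27. The tyrosine phosphatases Ptpn1 and Ptpn6 had 55.8 (54.1 to 57.4) and 26.7 (25.3 to 28.2). Socs2 and Cish, feedback inhibitors that STAT5 is known to induce, had intervals of 24.4 to 27.7 and 23.9 to 27.2. Sh2b3 at 0.713 and the ubiquitin ligase Cblb at 0.558 were below 1.

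Of 10 other known STAT5 targets, 8 reached an RPKM of 1, and the median of the 10 was 2.50. Mcl1, which protects cells from apoptosis, had 200 (196 to 203), the inhibitor of differentiation Id1 51.4, the cytokine oncostatin M, Osm, 46.1 and the anti-apoptotic Bcl2l1 8.21. Ccnd1 at 0.944 was below 1 and Myc was listed at 0. Of 12 genes whose proteins PIM kinases are known to phosphorylate, 7 reached 1, with a median of 3.21. The cell cycle inhibitor Cdkn1a had 1394 (1382 to 1405), the chemokine receptor Cxcr4 438 (431 to 445), the cell cycle inhibitor Cdkn1b 118 (115 to 122) and the translation factor Eif4b 17.6. Those below 1 were Foxo3 at 0.975, Cdc25a at 0.789, Akt1s1 at 0.405 and Cdc25c at 0.117, with Myc in this list also. Over the 83 genes of the 7 lists, 49 reached an RPKM of 1, against the 31.0% of all genes.

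**Figure D3:**
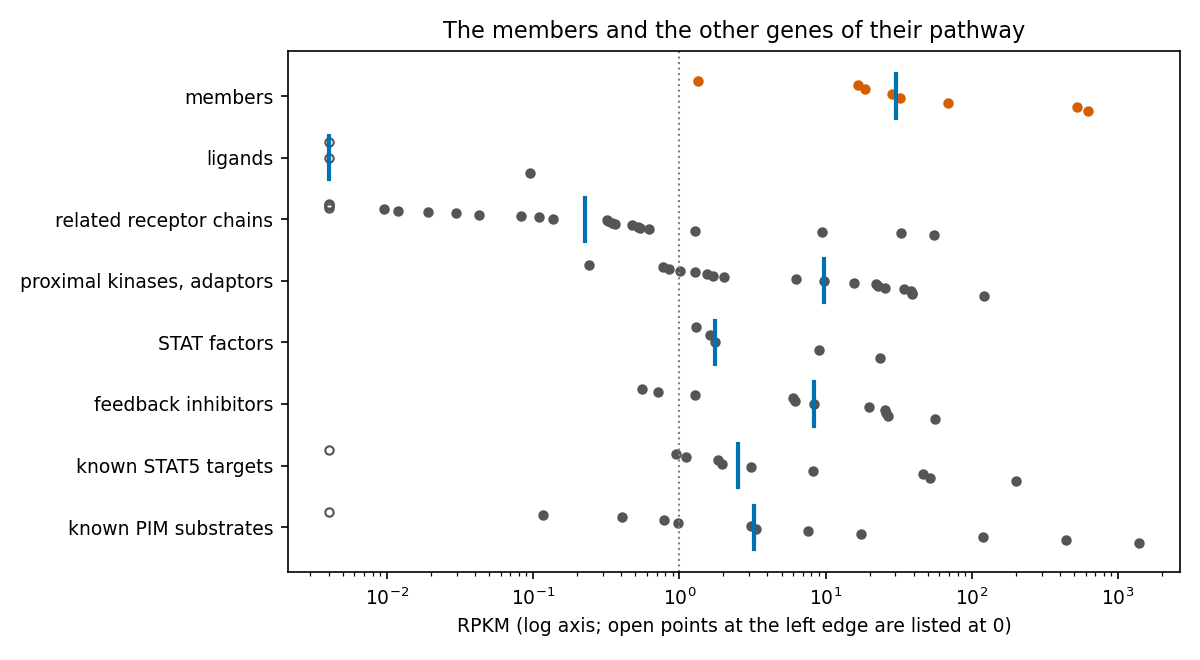
RPKM on a log axis of the 8 genes (top row) and of each gene in 7 lists of their pathway; a point is a gene, open points are genes listed at 0, blue bars are medians and the dotted line is an RPKM of 1. The median of the 8 genes is 30.3, that of the related receptor chains 0.228 and that of the ligands 0.

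How evenly a gene's reads were spread over the libraries could be read in part from the table. The depths of the 6 libraries were estimated from transcripts whose read total over all of them was 1: 4 libraries lay between 1892486 and 2396564 reads, and the others at 4343107 and 4752357. Of 1455 such values, computed with GENCODE M21 lengths, 392 fell in 6 narrow windows that were taken as the depths, and the next fullest window held 3. The other values fell outside the 6 windows. If each library's reads were divided by its own depth before averaging, the mean read total divided by RPKM and by transcript length gives a read-weighted depth. In units of 1000000 reads, it equals the mean depth of 2.93 where reads follow depth, and is higher where the deeper libraries hold more than their share. Over 911 genes with at least 600 reads and transcript ends within 30 bases of the row, the median was 3.02 and the 5th and 95th percentiles were 2.58 and 3.59.

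Csf2rb and Pim1 sat at nearly the same place on this scale, Csf2ra and Il5ra lower, and Pim2 and Pim3 higher. In the same units, Csf2ra stood at 2.74 ± 0.00772 (counting SE), with 17.1% of the 911 genes below it, and Il5ra at 2.82 ± 0.0308, with 27.1% below. Csf2rb stood at 3.11 ± 0.0161, with 61.4% below. Pim2 stood at 3.45 ± 0.0446, with 88.1% below, and Pim3 at 3.64 ± 0.0416, with 96.6% below. With the transcript lengths used, reads of Pim2 and Pim3 were thus weighted more toward the deeper libraries than reads of Csf2ra and Il5ra. The lengths behind the deposited RPKM are not stated, and each value moves in proportion to them. For Csf2rb2 at 2.82 and Pim1 at 3.11 the row's ends differ from the transcript's by 121 and 945 bases, so their values are approximate, and Il3ra had too few reads. The libraries could not be assigned to the 2 samples, so whether this is a difference between samples or between technical libraries was not tested.

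**Figure D4:**
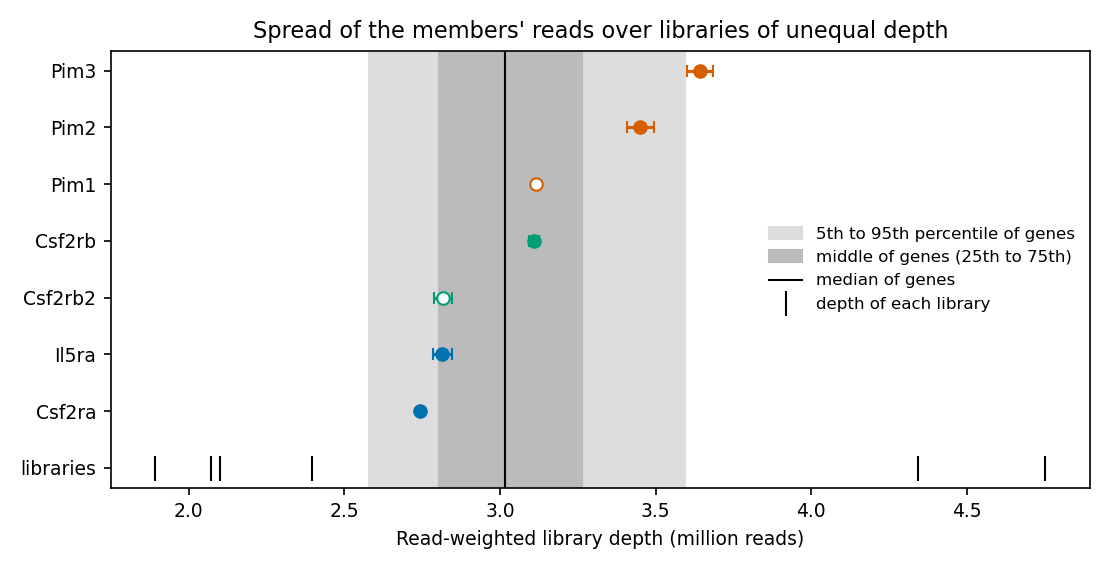
Read-weighted library depth, in units of 1000000 reads, of 7 of the 8 genes (points, bars are the counting SE; open points mark genes whose transcript ends differ from the row's), with the percentiles of 911 genes as shading and the depth of each library as ticks. Csf2ra lies lowest at 2.74 and Pim3 highest at 3.64, above the 95th percentile of 3.59.

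The labelled cell type was checked against marker genes. Of 6 eosinophil markers 5 reached an RPKM of 1, against 31.0% of all genes. Alox15 at 230 and Ccr3 at 155 were the highest, and Epx, the eosinophil peroxidase gene, had 0.265. Siglecf at 77.9, Il1rl1 at 75.6 and Prg2 at 74.3 lay below the 89.3 of the epithelial gene Epcam. The 6 eosinophil markers summed to 613. Markers of other cell types of the colon and blood were read beside them, against the same 31.0% of all genes. Of 8 macrophage and monocyte genes 6 reached 1, from 0 to 41.0, led by Csf1r and C1qb at 41.0 and 37.9, with Mertk listed at 0 and a sum of 104. Of 9 mast cell genes 2 reached 1, at most 2.47 (Mcpt1, then Mcpt2 at 1.14), and Mcpt4, Tpsab1, Tpsb2 and Ms4a2 were listed at 0, with a sum of 4.36. Of 5 basophil genes only Hdc reached 1, at 14.5, followed by Mcpt8 at 0.166, with Cd200r3 and Fcer1a at 0 and a sum of 14.7. Of 7 neutrophil genes 2 reached 1, S100a9 at 23.9 and S100a8 at 10.2, and Mpo and Elane were at 0, with a sum of 35.8. No dendritic cell gene of 6 and no B cell gene of 3 reached 1, and Ccr7 was the highest of the dendritic cell genes at 0.256. Of 5 T cell and innate lymphoid genes 1 did, Cd3e at 1.44, ahead of Gata3 at 0.381. All 5 epithelial genes did, from 5.09 to 89.3 (Epcam, then Krt19 at 66.7), and 4 of 5 fibroblast and endothelial genes did, led by Col3a1 at 66.7 and Col1a2 at 35.2. The lists summed to 0.542 for dendritic cells, 0.808 for B cells, 2.05 for T cells and innate lymphoid cells, 202 for epithelium and 143 for fibroblasts and endothelium. With 1 pooled value per gene, the part of these cells in the levels of the 8 genes was not tested, and no gene could be named for a pattern like theirs.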

How the data were processed

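The deposited table has 31295 rows, 1 per RefSeq transcript, with a read total and an RPKM, each 1 value for the whole group. Per the submitters' processing notes the authors used STAR 2.4.2a and DESeq with genome build mm10; the sources used here do not name the counter, the annotation or the transcript lengths. The read totals deposited by the authors, treated as a signal and not as raw counts, become whole within 0.0001 when multiplied by 6 in 100% of rows, as a mean over 6 libraries would. The RPKM values are the authors' own, per the file headers.

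Symbols were updated through RefSeq (GRCm38.p6), and the row with the most reads was kept per gene, which left 23456 genes. Read totals times 6 were taken as counts of reads over the 6 libraries, and gave exact 95% Poisson and binomial intervals. Transcripts of GENCODE M21 gave annotation and sequences. Their coordinates and the table's are both mm10. The transcript used has ends within 30 bases of the row's, or is the one paired with its accession. Words of 35 bases were searched on both strands in transcripts of other genes, and not in the rest of the genome.

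The 8 genes and all lists were chosen with earlier results of these data known. Named genes are the 8, the 4 highest of each pathway list, every ligand and STAT factor, up to 3 listed at 0, and the 2 highest of each marker list; a few genes named by it are left out of the text. Genes given below an RPKM of 1, mast cell genes listed at 0 beyond 3, and the eosinophil markers Siglecf, Il1rl1 and Prg2 were added after their values were seen. Ly6g, Ighm and Trbc2 were not matched. Alternatives were other detection minimums, RPM, rescaled RPKM, other rows and shared words. There were 0 columns of other samples. Python 3.11.15, numpy 2.4.6, pandas 2.3.3, scipy 1.17.1, matplotlib 3.10.9 and biopython 1.88 were used. On counts simulated as Poisson, 96.2% of Poisson intervals held the true mean. This checks the computation only, since those counts held no unequal depth, amplification copies or spread between samples.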

Additional observations from a re-analysis of the deposited data

How the results depend on the processing

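All 8 genes reached any RPKM above 0 (69.1% of all genes did), an RPM of 1 (50.9%), 1 on rescaled RPKM (47.5%) and 1 with the row of highest RPKM (31.1%), and 7, all but Il3ra, reached an RPKM of 5 (14.2%). The percent of genes below the median of the 8 was 96.12 by RPKM and 96.65 by RPM. With RPKM in place of reads, the share of Csf2rb in the beta chains moved from 82.3% to 80.4%, that of Csf2ra in the alpha chains from 93.3% to 96.3% and that of Pim1 in the kinases from 87.6% to 91.1%; RPKM differs from reads in its length term and in how it weights libraries. Of the 83 pathway genes, 33 reached an RPKM of 5 and 67 an RPM of 1, against 49 at an RPKM of 1 (14.2%, 50.9% and 31.0% of all genes). Since no member has a second row, and none has 50% or more shared words, those alternatives gave the same values. Leaving out a sample was not run, as the table holds only the mean of both. No paired analysis was possible because there is 1 group. Depth limits Il3ra, with 40 reads, and the ligands most.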
